A study of Homo sapiens with 14 samples.

Results

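The RelB ChIP of L1236 cells was compared with input DNA in the 3984 regions that have a RelB summit in the merged analysis, out of 14865 union regions in which at least 1 of 4 NF-κB subunits was called. L1236 is an established Hodgkin lymphoma cell line, for which the labels give no treatment. The RelB group holds 2 ChIP libraries made with the rabbit polyclonal antibody C-19 (sc-226), and the input group holds 6 libraries of the same cells made without antibody. The other ChIPs of the union regions, p50, p52 and RelA, also had 2 replicates each. According to the methods, the 2 p52 replicates were made with different antibodies. All groups come from this 1 line. The deposited values were taken from merged replicates, so a region has 1 value per subunit and no replicate error, apart from a RelB signal value for each replicate. The identity of the cells was not checked against markers, since ChIP reads do not measure expression.

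RelB is an NF-κB subunit that carries a transactivation domain and binds DNA mainly as a heterodimer. In the non-canonical pathway the kinase NIK, acting through IKKα, leads to processing of the p100 precursor to p52, and RelB dimers that p100 had held back reach the nucleus. RelB is best known for lymphoid organ development and B cell maturation, and constitutive activity of both NF-κB pathways is a known feature of Hodgkin lymphoma cells.

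The sequences of 6 promoters with a RelB region over the transcription start site (TSS) are shown. They were chosen among promoters that hold the κB pattern given below, since their genes encode NF-κB proteins or well known NF-κB targets. RELB, RELA and BIRC3, which also have a RelB region over the TSS, are not among them. The windows are from RefSeq (GRCh38.p14), written 5′ to 3′ in the direction of the gene, and the capitals mark a match to the κB pattern GGGANNTTCC on either strand (overlapping matches are joined).
NFKBIA, chr14:35404801-35404850, minus strand: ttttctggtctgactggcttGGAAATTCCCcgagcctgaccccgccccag
NFKB2, chr10:102395664-102395704, plus strand: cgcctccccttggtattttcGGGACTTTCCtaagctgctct
TNFAIP3, chr6:137867172-137867221, plus strand: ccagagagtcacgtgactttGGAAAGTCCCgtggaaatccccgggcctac
TNFRSF9, chr1:7940883-7940933, minus strand: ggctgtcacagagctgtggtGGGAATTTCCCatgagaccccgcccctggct
REL, chr2:60881507-60881557, plus strand: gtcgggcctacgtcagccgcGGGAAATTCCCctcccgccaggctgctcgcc
NFKB1, chr4:102501290-102501339, plus strand: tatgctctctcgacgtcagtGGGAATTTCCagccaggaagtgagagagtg
The match begins 81 bases before the start of NFKBIA, 21 before NFKB2, 67 before TNFAIP3, 74 before TNFRSF9, 47 before REL and 49 before NFKB1. The RelB fold enrichment of the region over the TSS was 56.0 at NFKBIA, 55.3 at NFKB2, 41.0 at TNFAIP3, 23.9 at TNFRSF9, 16.3 at REL and 10.1 at NFKB1. Each value is that at the listed RelB summit of the region and not necessarily that at the match. At NFKBIA the listed summit was 768 bp downstream of the TSS. The region coordinates given from here on are hg18, and no position was carried over from one build to the other.

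Promoters with this pattern made up 1.61% of all 35116 RefSeq promoters (250 bases before to 50 after the start). A RelB region over the TSS was listed for 137 genes with a symbol, of which 90 had a RefSeq promoter. Of their 143 promoters, 14 held the pattern, which is 9.79% (95% Wilson interval 5.92 to 15.8). Of the 260 promoters of 177 genes whose TSS lay only under regions called for other subunits, 9 held it (3.46%, 1.83 to 6.45). The looser pattern GGGNNNNNCC, searched on both strands and including every match to the first, was found in 58.7% of all promoters, 77.6% of those under RelB regions and 78.1% of those under the other regions. The share of the first pattern was thus higher under the RelB regions than over all promoters, and the looser pattern did not separate RelB regions from the others. These are descriptions of letters in a window around the annotated start. Promoters of 1 gene share sequence, and the genes with a symbol are those in the study's supplementary tables.

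MACS gives each region a fold enrichment, which sets the RelB ChIP at its summit against the input expected there. It ranged from 2.43 to 62.2 with a median of 9.08 (95% interval from order statistics 8.85 to 9.25), and the quartiles were 6.33 and 13.4. A fold enrichment of at least 5 was listed for 90.4% of the regions, at least 10 for 43.5% and at least 20 for 9.01%. Only 5 regions exceeded 50. Most RelB regions were thus of moderate enrichment, with a small group far above the rest. The pileup, which counts the fragments stacked over the summit, ranged from 8 to 337 with a median of 28. The intervals cover the number of regions only and not the spread between replicates.

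RelB regions held 285872 of the 470788 RelB reads counted in the union regions (60.7%). The read density had a median of 44.1 reads per kb in RelB regions (43.3 to 44.9) and of 16.5 in the 10881 regions without a RelB call (16.3 to 16.7). The called regions were thus 2.68 times as dense in the median, a difference that the calling itself selects for. The distributions overlapped little: 207 uncalled regions (1.90%) reached the median of the called ones, and 14 called regions (0.351%) lay below the median of the uncalled ones. RelB regions were also wider, with a median of 1116 bp against 791 bp. In the narrowest of 4 width groups of equal size (up to 618 bp) the medians were 51.9 with and 14.5 without a RelB call. In the widest (from 1235 bp) they were 41.7 and 18.5. The share called for RelB rose with width from 14.4% to 44.8% over these groups. A union region is widened by the peaks of every subunit called there, so width and the number of subunits are not independent.

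**Figure D1:**
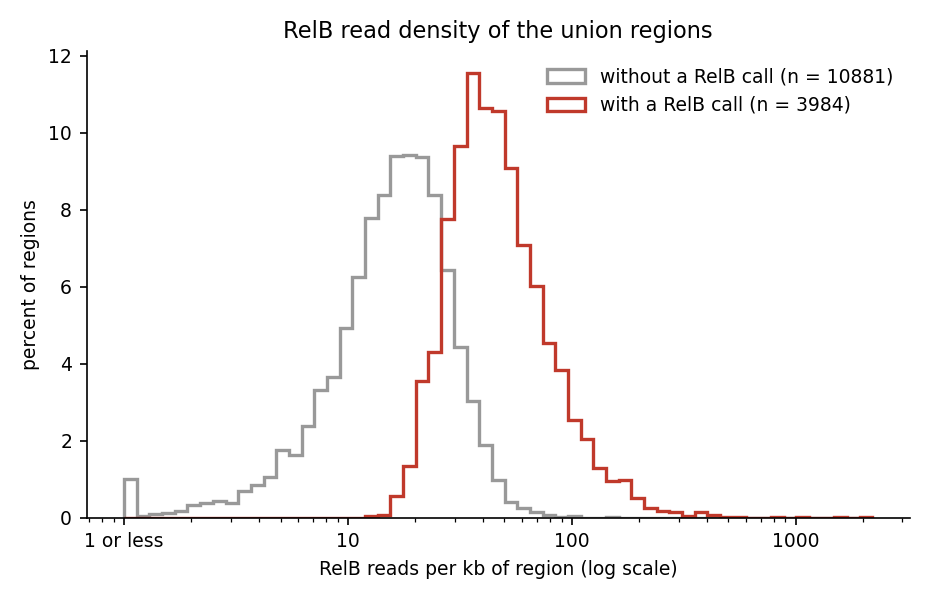
RelB reads per kb (x axis, log scale, values of 1 or less drawn in the first bin) as percent of the regions with and without a RelB call (y axis). The called regions, with a median of 44.1, are shifted to the right of the uncalled ones, with a median of 16.5, and carry a tail that reaches 1949 reads per kb.

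The highest fold enrichment was 62.2, at chr5:10615338-10619266 over the TSS of ANKRD33B, with 395 RelB reads. NFKBIA, the gene of the inhibitor IκBα, followed with 56.0 and 620 reads (chr14:34941193-34944892, 168 reads per kb, exact Poisson interval 155 to 181). NFKB2, which encodes p100 and p52, had 55.3 and 495 reads (chr10:104143410-104146372, 167 reads per kb, 153 to 182). Both genes encode proteins that retain NF-κB dimers in the cytoplasm. The next regions were chr14:67768661-67769914, inside ENSG00000182185, with 54.5, and chr19:55089820-55093263, whose closest TSS is that of AKT1S1, with 53.1. GPR132, a G protein-coupled receptor of lymphocytes, had 49.5 in a region 4064 bp upstream of its TSS (chr14:104606863-104608637). JUNB, an AP-1 subunit highly expressed in Hodgkin lymphoma cells, had 48.9 and 393 reads (chr19:12762930-12766215, named by overlap with the gene's span in the study's primer list). The remaining regions of the highest 10 were over the TSS of ENSG00000118260 (48.2), in BCAS1 (47.2), and on chromosome X (46.8). Of these 10, 8 were called for all 4 subunits, and the regions of ANKRD33B and BCAS1 for RelB, p50 and p52.

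Read density ordered the regions differently. The densest RelB region, chr1:121185486-121187111, held 3169 reads, or 1949 per kb (1882 to 2018), at a fold enrichment of 12.2. The second, chr6:58884033-58887415, held 5543 reads (1638 per kb) at 10.8. Neither lies in a gene, and the closest genes are 448040 and 488429 bp away. The 10 densest regions and the 10 of highest fold enrichment had 0 regions in common, and the highest 100 of each shared 14. Across regions, fold enrichment correlated with reads per kb with a Spearman rho of 0.42 and with pileup with 0.74 (n = 3984 regions of the same libraries, descriptive).

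The pileup divided by the fold enrichment approximates the local background that MACS took from input. Its median was 2.89, and 27 regions (0.678%, 0.466 to 0.984) lay above 5 times the median (14.5). The median density was 277 reads per kb in these regions (190 to 397) and 44.0 in the other 3957. The median fold enrichment was lower, 6.06 (4.81 to 7.43) against 9.09 (8.89 to 9.28). They took 7.95% of all reads in RelB regions, and the 10 densest regions, 8 of which are among them, took 5.31%. RelA was called in 24 of the 27 (88.9%, 71.9 to 96.1) and in 10.4% of the others (9.52 to 11.4). A TSS was overlapped by 1 of the 27 (3.70%, 0.657 to 18.3) and by 16.0% of the others, a share within that interval. At the densest region the fold enrichment was 4.86 for p50, 4.97 for p52 and 4.85 for RelA. The 10 regions most crowded with RelB reads were therefore not the 10 most enriched over input. None of the 100 regions of highest fold enrichment was in the high background group, against 24 of the 100 densest. The region chr8:72918261-72919462, among the 10 densest, had a fold enrichment of 46.2 (rank 12) at a background of 3.94. The part of the background in the calls of the high background group was not tested.

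**Figure D2:**
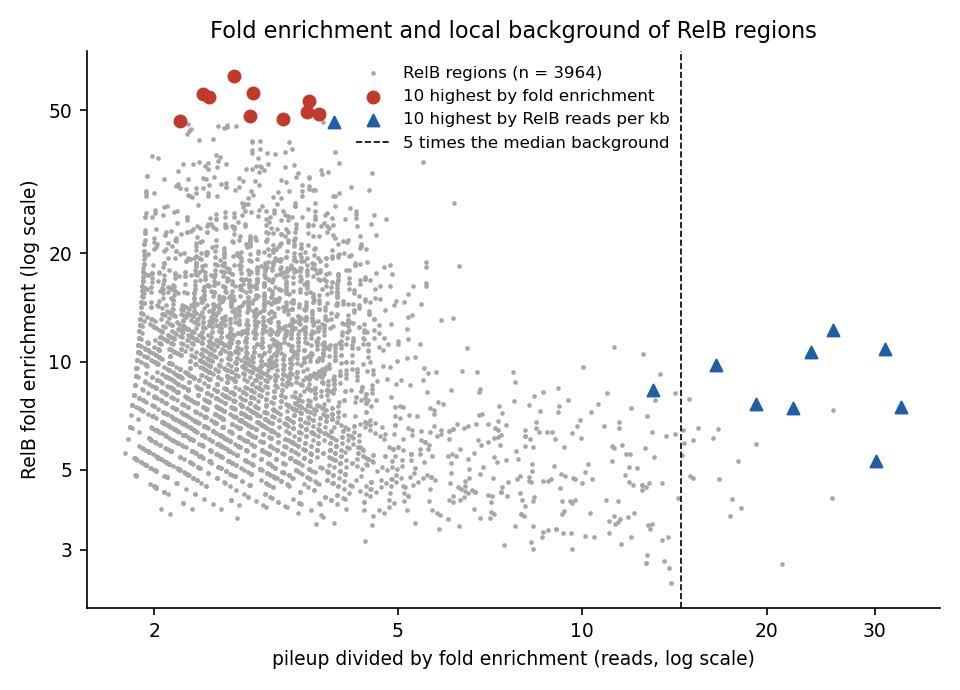
Fold enrichment (y axis, log scale) against pileup divided by fold enrichment (x axis, log scale) for each RelB region. The 10 regions of highest fold enrichment (circles, 46.8 to 62.2) sit near the median background of 2.89, and 8 of the 10 densest regions (triangles) lie beyond 5 times that median (dashed line).

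Each RelB region has a signal value from each replicate, and the deposited table does not say which replicate is which or on what scale. The first had a median of 166 (159 to 170) and the second of 299 (287 to 309). The second was the higher one in 2901 regions (72.8%, 71.4 to 74.2), with a median log2 ratio of 0.83 (0.77 to 0.89). After this shift was subtracted, 55.7% of the regions had values within 2-fold of each other, and 405 regions (10.2%, 9.27 to 11.1) were over 4-fold apart. The Spearman rho was 0.46 over the 3984 regions, which had all passed the reproducibility filter. The top 100 of the replicates shared 35 regions, and 30 of these were also among the top 100 by fold enrichment. The replicates thus ordered the strongest regions only partly alike.

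The shift between the replicates was not the same for all regions. Regions called for RelB, p50 and p52 had a median log2 ratio of 1.25 (1.19 to 1.31), those of all 4 subunits 0.45 (0.29 to 0.57), and those called for RelB alone -0.20 (-0.25 to -0.11). In the 27 regions of high background it was -0.20 (-0.49 to 0.04). After the shift of 0.83 was subtracted, the widest disagreement was at chr6:44779961-44780402, 124045 bp from ENSG00000196284, with signal values of 1369 and 99.4. This is also the region of highest fold enrichment (17.0) among those called for RelB alone. Of the 5 most discordant regions by this measure 4 were called for RelB alone, and the fifth for RelB and p52, with the first value higher in each. Without the subtraction, a ranking added after these values were seen, all 5 were called for RelB, p50 and p52 and had the higher second value, with 55.3 and 1422 at chr1:233217630-233218655 (log2 ratio 4.68). Which regions disagreed most, and in which direction, thus depended on the subtraction. At NFKBIA the values were 3055 and 3990, and at NFKB2 2228 and 3241.

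**Figure D3:**
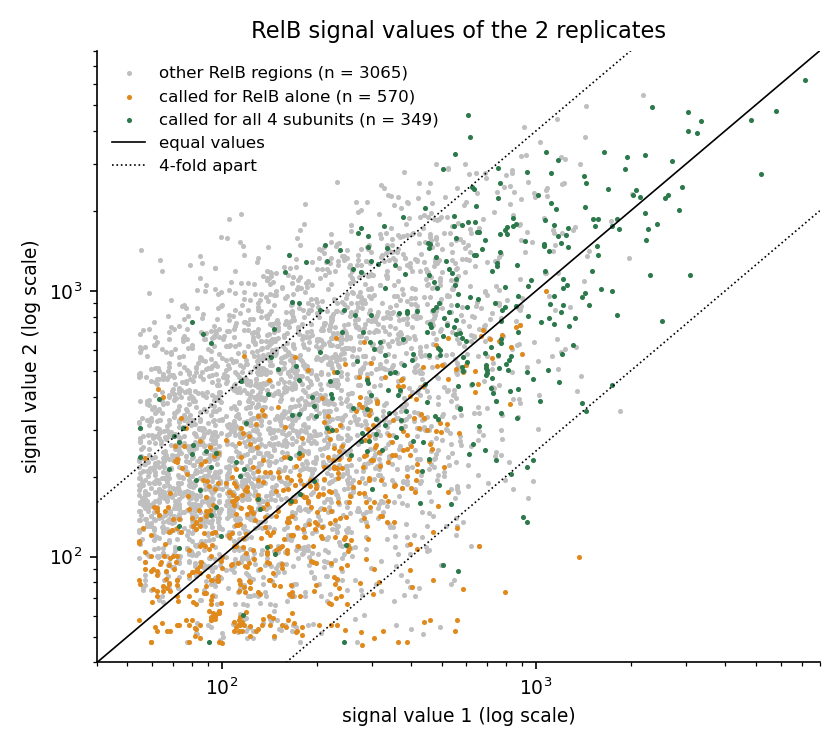
Signal values of the replicates (log scales) for each RelB region, with the line of equal values and lines 4-fold apart. Regions called for RelB alone (n = 570) gather at low values near the line of equal values, while regions of all 4 subunits (n = 349) extend to the highest values and most other regions lie above the line.

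The calls had been filtered by the irreproducible discovery rate (IDR) and by the MACS false discovery rate (FDR). The IDR is the expected share of irreproducible calls, judged by how consistently the replicates rank the calls found in both. The highest IDR among RelB regions was 0.00998 and the next were 0.00995 and 0.00994, although the stated threshold was 0.05. The highest FDR was 0.0157. The lowest fold enrichments were 2.43, 2.67 and 2.74. The IDR had a median of 0.00259 below the lower quartile of fold enrichment and of 0.000127 above the upper one. No fold enrichment is listed for a region without a RelB call, so the values just outside the threshold are only known as read counts.

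RelB binds DNA with p50 or p52 as partner, and p50 and p52 were called in most of its regions. RelB was called across 26.8% of all union regions. The 570 regions called for RelB alone had a median fold enrichment of 5.48 (5.36 to 5.64) and a maximum of 17.0. The median was 6.87 (6.39 to 7.25) with p50 only (151 regions), 7.98 (7.50 to 8.42) with p52 only (287 regions), 10.2 (9.92 to 10.5) with both (2539 regions) and 16.7 (15.3 to 17.7) with p50, p52 and RelA (349 regions). In the regions called with RelA but not with both p50 and p52, it was 4.72 (4.53 to 5.20) for RelA only (44 regions), 6.55 (6.06 to 8.18) for p52 and RelA (25 regions) and 6.61 (5.69 to 8.79) for p50 and RelA (19 regions). The median was thus highest where p50 and p52 were both called, and the number of subunits alone did not order the groups. A fold enrichment of at least 20 was listed for 127 of the 349 regions of all 4 subunits (36.4%) and for 0 of the 570 regions of RelB alone, which allows a share of up to 0.526%. Among the 100 highest RelB regions, 53 were called for all 4 subunits, 46 for RelB, p50 and p52, and 0 for RelB alone.

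The read density told a different order. It was 51.2 reads per kb in regions of RelB alone (48.6 to 54.2), 35.5 with p52 only, 34.6 with p50 only, 42.0 with both and 67.1 (63.1 to 72.3) with all subunits. The densest groups were those of p52 and RelA, with 163 (126 to 202), and of RelA only, with 116 (92.7 to 144), and p50 and RelA had 59.3 (37.7 to 185). The pileup divided by fold enrichment was also highest there, with medians of 9.90 and 8.86 in the first 2 of these groups and 4.37 in the third. The regions of RelB alone were also the narrowest, with a median of 569 bp against 1233 bp for RelB with p50 and p52. Among the larger groups, RelB reads made up 31.1% (30.0 to 32.7) of the reads of the 4 subunits in the regions of RelB alone, 17.5% with p52 only, 17.7% with p50 only, 11.9% with both and 14.7% with all. These shares depend on the depth of each ChIP and are comparable only between groups of regions, and the calls that define the groups used the same reads. In regions of RelB alone the median density of p50 was 43.1 and of p52 49.5 reads per kb. Among regions without a RelB call, that of p50 was 47.5 where p52 alone was called. That of p52 was 42.6 where p50 alone was called. The partner reads in regions of RelB alone were thus near the level of regions without a call for that partner. In the 4732 uncalled regions of p50 and p52 the median RelB density was 18.8 reads per kb (18.5 to 19.1). It was 14.1 where p50 alone was called and 15.3 where p52 alone was called.

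Position relative to genes also differed between partners. Of the 151 regions with p50 only, 69 overlapped a TSS (45.7%, 38.0 to 53.6), against 4 of the 287 with p52 only (1.39%, 0.543 to 3.53) and 25 of the 570 of RelB alone (4.39%, 2.99 to 6.39). With p50 and p52 it was 17.3% (15.8 to 18.8) and with all subunits 24.9% (20.7 to 29.7). TSS overlap of a RelB region thus went with the presence of p50. Without a RelB call, 32.7% of the regions of p50 alone, 14.9% of those of p50 and p52 and 1.94% of those of p52 alone overlapped a TSS. Small uncalled groups with RelA and without p50 did not follow this order. There it was 26.9% of 26 regions of RelA only and 50% of 2 regions of p52 and RelA.

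**Figure D4:**
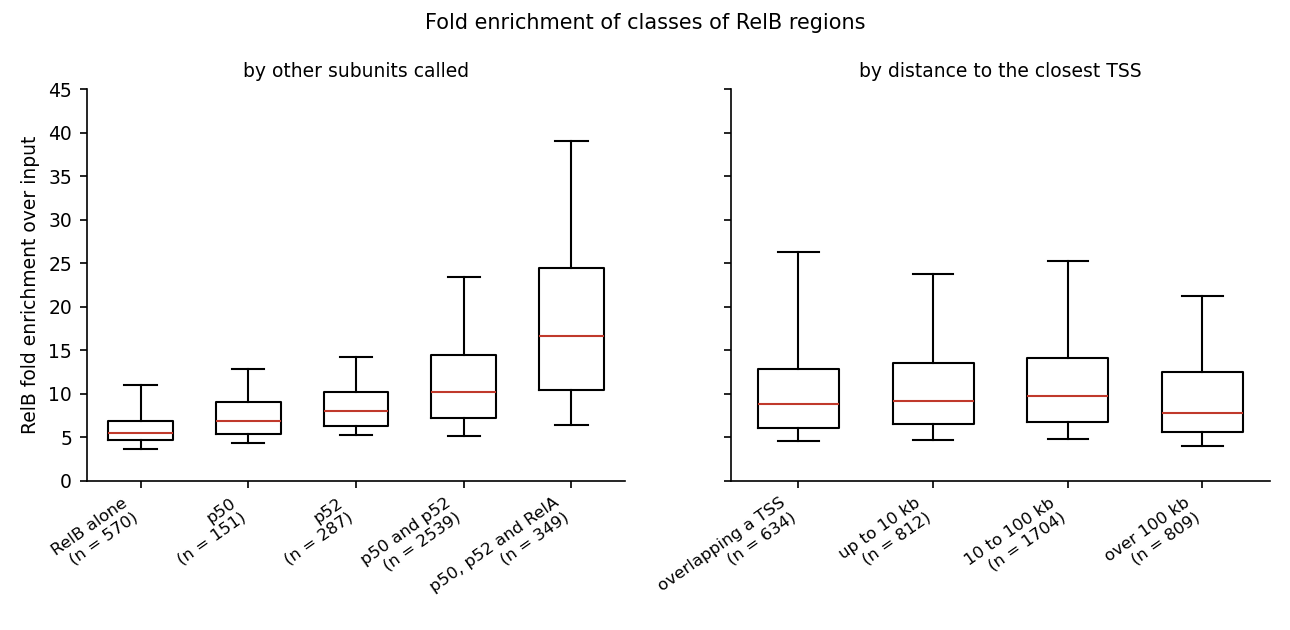
RelB fold enrichment over input by the other subunits called in the region (left, the 5 largest groups, the 3 smaller groups with RelA not drawn) and by distance to the closest TSS (right). The line is the median, the box spans the quartiles and the whiskers the 5th and 95th percentiles. The medians climb from 5.48 for RelB alone to 16.7 with p50, p52 and RelA, and lie between 7.81 and 9.74 over the distance groups.

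Most RelB regions lay away from promoters. A TSS was overlapped by 634 regions (15.9%, 14.8 to 17.1), 766 (19.2%, 18.0 to 20.5) were within 1 kb of one, and 809 (20.3%) were over 100 kb away. A gene was touched by 2170 regions (54.5%, 52.9 to 56.0). Regions without a RelB call overlapped a TSS in 16.7% (16.0 to 17.4) and touched a gene in 59.3% (58.4 to 60.2). RelB was called in 25.9% of the 2447 union regions over a TSS, close to its 26.8% over all regions. Among the RelB regions off a TSS the median distance was 33687 bp, and 42.8% of them lay upstream of the TSS.

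The median fold enrichment was 8.83 (8.36 to 9.34) over a TSS, 9.12 up to 10 kb, 9.74 (9.30 to 10.0) from 10 to 100 kb and 7.81 (7.53 to 8.24) over 100 kb. The difference between the first and the last, a log2 ratio of 0.18, turned to -0.32 (-0.58 to -0.087) with the first signal value, -0.051 with pileup and -0.12 without the regions at genes with 5 or more RelB regions, and the intervals of the last 2 values include 0. The last group held 233 of the 570 regions of RelB alone. Within the regions of RelB, p50 and p52 the order was turned round, with 8.81 over a TSS and 11.6 over 100 kb. The lower median of the distant regions over all was thus not seen within this group. The distant regions of RelB alone had a median density of 73.2 reads per kb at a fold enrichment of 5.22, against 40.9 reads per kb at 5.61 for the 25 over a TSS.

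The deposited table lists 1 summit per subunit in each region, so further peaks of a subunit in the same region are not seen in these distances. RelB summits lay close to those of its partners. The median distance was 17.5 bp to p50 (n = 3058), 19.0 bp to p52 (n = 3200) and 22.0 bp to RelA (n = 437), and 79.5% of the p52 summits were within 50 bp. In 160 of the 3200 regions (5.00%, 4.30 to 5.81) the RelB and p52 summits were over 500 bp apart. Where both p50 and p52 were called, this was 148 of the 1442 regions wider than the median and 4 of the other 1446.

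Some of these wide regions lay at known NF-κB targets. At NFKBIA the listed RelB summit was 768 bp downstream of the TSS and the RelA summit 802 bp downstream, whereas the p50 and p52 summits were 182 and 156 bp upstream. At BCL3, an atypical IκB protein that binds p50 and p52 dimers, the summits of RelB and p50 were 1011 and 1014 bp upstream and that of p52 149 bp downstream. At JUNB RelB peaked 2270 bp and p52 2214 bp downstream of the TSS, and p50 peaked 1 bp from it. At REL all summits were upstream within 95 bp, with RelB at 89 bp. The fold enrichment is that at the listed summit of each subunit, so within such regions it describes different positions. A listed summit elsewhere in the region does not show that a subunit was missing at the others.

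RelB fold enrichment was below that of p52 in most shared regions, with a median log2 ratio of -1.38 (-1.41 to -1.33), and below that of p50, with -1.11. It was above that of RelA, with 1.09 (1.02 to 1.16). RelB exceeded p52 in 157 of 3200 regions (4.91%). At NFKBIA the values were 56.0 for RelB, 88.7 for p50, 101 for p52 and 19.9 for RelA. At IRF2, an interferon regulatory factor, RelB had the highest of the 4 values, 32.3 against 29.5 for p50, 19.1 for p52 and 8.82 for RelA. Fold enrichments of different antibodies depend on how well each precipitates, which was not tested.

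The amplicons of the study's primer list give fixed positions in these regions. The study used these primers to check selected ChIP-seq regions of the same data, besides reference regions. Their overlap with RelB regions and closeness to summits are therefore not independent evidence. Of 24 amplicons, 16 lay in a RelB region, 2 of them in the same region of NFKBIA. The median distance from the RelB summit to the middle of these 16 amplicons was 104 bp. The primers at 3 of them are shown, since they mark regions of high RelB enrichment in hg18.
JUNB forward: atctccagggttggatggtt
JUNB reverse: cctgcgcactccaagtct
NFKBIA forward: ccccagctcagggtttagg
NFKBIA reverse: ccagtcagaccagaaaaagagaact
BCL2L1 forward: accatcacagggttttccag
BCL2L1 reverse: ccgggtaattttcgacagaa
The JUNB amplicon (chr19:12765301-12765393) was 233 bp and that of BCL2L1 (chr20:29768868-29768953) 65 bp from the RelB summit. The NFKBIA amplicon (chr14:34943791-34943873) was 897 bp from it and closer to the p50 and p52 summits. The amplicons of CSF2 and STAT5A and the one in ACTB lay in regions without a RelB call, with 47, 56 and 71 RelB reads. The amplicons of NFKB2 and RELB lay just outside the union regions and were 151 and 330 bp from the nearest RelB region. That the regions of these genes overlap a TSS is taken from the distances in the deposited table. Both amplicons of POR, which served as a reference, lay in none of the union regions, the nearer one 63011 bp from a RelB region.

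Each region was assigned to its closest gene and closest TSS. Of the 8450 genes with any union region assigned, 3224 had a RelB region (38.2%). A symbol could be given to 527 of these, out of 1132 of all such genes (46.6%), since symbols came only from the study's supplementary tables, part of which were shortened. Those tables hold genes picked by the study, so the counts of the lists below describe them and are not independent evidence. Of the 155 genes of 12 lists chosen for Hodgkin lymphoma and NF-κB biology, 75 had an identifier, 73 of these had a union region and 65 a RelB region (89.0%, against 46.6% of all genes with a symbol and a region). The highest RelB fold enrichment per gene had a median of 16.3 in these 65 genes, of 11.7 in the 527 and of 10.3 in the 3224. It was at least 20 in 21 of the 65 (32.3%), 18.0% of the 527 and 12.3% of the 3224. A gene counted here if any 1 of its union regions was a RelB region. Both this share and the highest value per gene therefore depend on how many union regions a gene has, which was not adjusted for. TNFAIP3 had 4 RelB regions among 18 union regions and GATA3 5 among 17, whereas NFKB2 had 1 of 1.

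All 5 genes of the NF-κB subunits had a RelB region over the TSS that was also called for p50, p52 and RelA. NFKB2 had 55.3, RELB 38.2 (chr19:50196148-50197531, 207 reads, 150 per kb, 130 to 171), REL 16.3 (chr2:60961113-60964105, 223 reads), RELA 15.8 (65 reads) and NFKB1 10.1 (95 reads). The genes of the non-canonical pair, NFKB2 and RELB, thus carried the highest RelB enrichment of the 5. At RELB itself the fold enrichment was 40.2 for p50, 51.1 for p52 and 8.71 for RelA.

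Of 6 IκB family genes 3 had an identifier, and all 3 had RelB regions. After NFKBIA these were BCL3 with 18.2 in a region 22377 bp upstream of its TSS and NFKBID, a nuclear IκB protein, with 16.7 (141 reads). BCL3 had 4 RelB regions. Among regulators of NF-κB signalling, 5 of the 6 with an identifier had a RelB region. TNFAIP3, the ubiquitin-editing enzyme A20, had 41.0 (chr6:138228897-138231250, 244 reads) and BIRC3, the ubiquitin ligase cIAP2, 39.0 (chr11:101692401-101693877, 182 reads), both over the TSS with all subunits called. BIRC2, which encodes cIAP1, had 21.5, TRAF1, an adaptor of TNF receptors, 19.2 and TNIP1, a partner of A20, 14.5. CHUK, the gene of IKKα, had a union region but no RelB call.

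Of 7 apoptosis regulators with an identifier, 6 had a RelB region, 12 in total, all with p50 and p52 called, as were 72.5% of all RelB regions. BCL2L11, the pro-apoptotic BIM, had 29.1 in a region 40216 bp from the gene, and BCL2L1, the anti-apoptotic BCL-XL, 23.5 inside the gene. CFLAR, the caspase-8 inhibitor FLIP, had 17.8 over its TSS and 5 RelB regions in all. BCL2 had 14.1 in a region 157823 bp inside the gene from its TSS. BAX had no union region.

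In the TNF family, 4 of the 5 genes with an identifier had RelB regions. LTA, which encodes lymphotoxin α, had 24.9 and 404 reads, TNFRSF9 (4-1BB) 23.9, CD40 20.7 in a region 11234 bp into the gene, and TNFSF9, the ligand of 4-1BB, 14.2. These regions of LTA and TNFRSF9 overlapped the TSS and those of CD40 and TNFSF9 did not. Of the 8 RelB regions of the list 3 overlapped a TSS. CD70, the ligand of CD27, had no identifier in these counts, and its amplicon lay in a RelB region of 12.4. TNF had no union region of its own, although assignment by the closest gene cannot split the neighbouring LTA and TNF.

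Of the chemokine genes with an identifier, CCL5 had 17.9 over its TSS, CXCR4 15.9 in a region 163102 bp upstream, CCR4 14.6 in a region 40440 bp from its TSS, and CCL17, a chemokine that Hodgkin cells secrete, 12.4. In all 6 of these 7 had a RelB region, and CCL3 had a union region without one. CCR7, a lymphocyte chemokine receptor without an identifier in these counts, had its amplicon in a RelB region of 21.4 with all 4 subunits called. The gene assigned to that region, ENSG00000126353, had 8 RelB regions with a highest value of 26.9. Of the cytokine genes 8 of 8 had a RelB region. IL4R, the interleukin-4 receptor, had 24.3 over its TSS, and CSF2 20.5 in a region 8429 bp downstream of its TSS. IL21R had 18.7 with all subunits called.

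Of 6 genes of costimulation and adhesion all 6 had a RelB region. CDH1 had 30.4 in an intragenic region only 678 bp wide, with 97 reads, or 143 per kb (116 to 174). CD80, CD44 and CD86 had 14.9, 9.90 and 9.45, the last 2 close to the median of all RelB regions. ICAM1, a well known NF-κB target, had 6.04 at its TSS with all 4 subunits called.

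Among transcription factors of the B lineage and of Hodgkin cells, 13 of 15 had RelB regions, 38 in total. IRF2 had 32.3 at 44884 bp upstream, ETS1 30.2 at 139312 bp beyond the gene, TCF7 26.6 inside the gene and GATA3 21.0 at 290669 bp beyond it. Of these 38 regions 5 overlapped a TSS, against 15.9% of all RelB regions. IRF1 had 20.8 over the TSS, whereas PAX5, the B cell identity factor, had 15.8 at an intragenic site 98400 bp from the TSS. BACH2 and LEF1 had union regions without a RelB call.

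Of the AP-1 and ATF genes with an identifier 4 of 5 had a RelB region. JUNB had no identifier and is not in this count, and the region that holds its amplicon had 48.9, above all of these. ATF3 had 16.8 inside the gene and JUN 14.3 in a region 228688 bp upstream, and FOS had a union region without a RelB call. In the JAK-STAT list 5 of 5 had a RelB region. TYK2 had 38.1 in a region 7154 bp upstream of its TSS, and PTPN6 12.8 inside the gene. The value of STAT5A was 6.63, in a region 49708 bp from its TSS that lies inside a neighbouring gene. The cell cycle list had 3 genes with an identifier, CDKN1A, CDKN2C and E2F2, each with a union region and none with a RelB call. With 3 genes, this count is small.

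The reference genes ACTB and B2M had RelB regions too. ACTB had 24.1 and 379 reads in a region 10101 bp upstream of the gene (chr7:5546859-5549035, 174 reads per kb, 157 to 193), called with p50 and p52. The region with the ACTB amplicon was called for p50 and not for RelB.

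**Figure D5:**
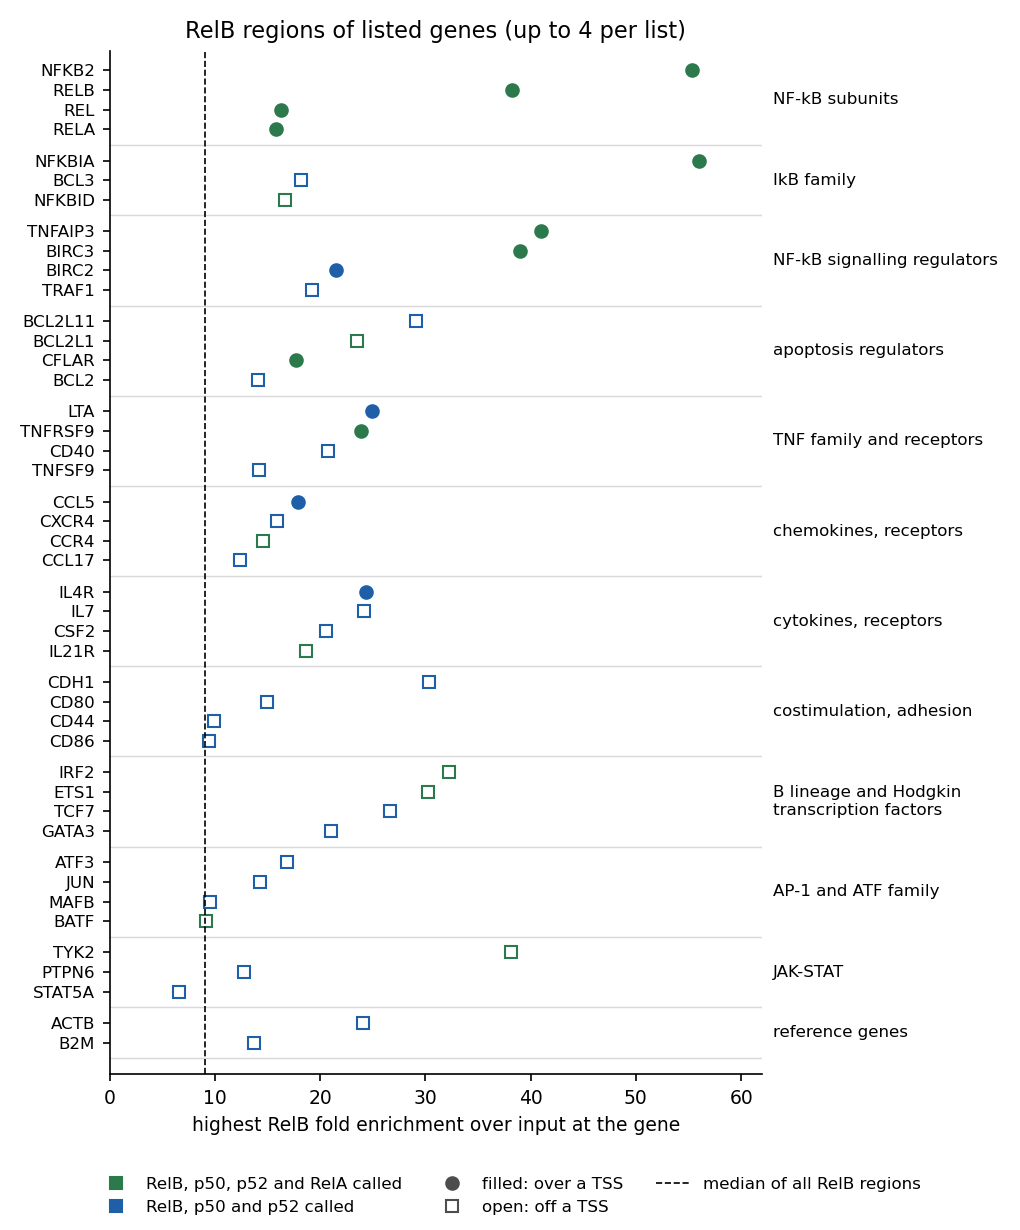
Highest RelB fold enrichment over input (x axis) of the genes with an identifier in each list, at most 4 per list and 2 of the reference genes. Colour gives the other subunits called, filled points overlap a TSS, and the dashed line is the median of all RelB regions, 9.08. NFKBIA and NFKB2 reach 56.0 and 55.3, and of the genes drawn STAT5A alone lies to the left of the line. Since only the highest genes of each list are drawn, lower ones such as ICAM1, at 6.04, are not seen.

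Most genes had a single RelB region (2394 of 3224, 74.3%), and 49 had 5 or more. The most were assigned to ENSG00000109182, with 32, and ENSG00000215146, with 27, and every union region at either gene was a RelB region. None of the 32 touched the gene, 31 were called for RelB alone, and their fold enrichment ranged from 3.01 to 6.67. At ENSG00000215146 it ranged from 2.79 to 10.5, with 8733 RelB reads in all. These genes were thus counted as the closest ones to regions in a stretch of low enrichment. The 393 regions at the 49 genes had a median fold enrichment of 6.10 (5.81 to 6.39), a median density of 75.6 reads per kb (70.1 to 84.4) and a background of 4.66 (4.36 to 5.28). The other 3591 had 9.41 (9.20 to 9.63), 42.5 (41.7 to 43.4) and 2.83 (2.81 to 2.87). RelB alone was called in 43.3% (38.4 to 48.2) of the first and 11.1% (10.2 to 12.2) of the second. The part of the local background in these differences was not tested.

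Values differed among the other genes with many RelB regions. BHLHE40, a transcriptional repressor that was named after its values were seen, had 8 RelB regions among 17 union regions, with fold enrichments from 6.67 to 26.9. ITPKB, an inositol phosphate kinase of lymphocytes named in the same way, had 9 of 19, all inside the gene, from 3.87 to 9.24.

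The regions of RelB alone with the highest fold enrichment were chr6:44779961-44780402 (17.0, 64 reads) and chr7:40680211-40680855, inside ENSG00000175600 (15.9, 37 reads). In the second the reads of p50 and p52 were 27 and 41, without a call for either. Reads of different ChIPs depend on the depth of each, so these counts cannot be set against the 37 of RelB. Among the regions without a RelB call the densest in RelB reads was chr17:38755244-38756861, 28129 bp from ENSG00000184988, with 245 reads or 151 per kb (133 to 172), called for p50, p52 and RelA. BMP10 had a region with 156 RelB reads, or 98.8 per kb (83.9 to 116), called for p50 and p52 (chr2:68937707-68939285). Both were denser than the upper quartile of the RelB regions, 63.2 reads per kb, and their RelB fold enrichment is not listed.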

How the data were processed

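The sequencing libraries were 2 RelB ChIPs and 6 input DNAs of L1236, within a series that also holds ChIPs of p50, p52 and RelA. According to the submitters' notes and the methods, CASAVA, Bowtie and SAMtools were used with hg18, uniquely mapping reads were kept, duplicates removed, libraries randomly reduced to a common size and peaks called with MACS, first per replicate for the IDR and then on merged replicates.

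The deposited counts are whole reads of the merged replicates per union region, not normalised, and whether they precede the random reduction is not given in the sources used here. The deposited fold enrichment, a ratio of ChIP to input, and pileup, a coverage signal, come from MACS. The deposited signal values are a score per replicate of unnamed scale, the deposited IDR is a fraction, and the deposited FDR is a q-value. Distances and gene identifiers are the authors' (Ensembl version 54).

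From these, densities per kb, medians, shares and rank correlations were computed with scipy 1.17.1, pandas 2.3.3, numpy 2.4.6 and matplotlib 3.10.9 in Python 3.11.15. Shares have Wilson 95% intervals, read counts exact Poisson intervals and medians intervals from order statistics, all covering counting error only. Regions are not replicates, so no test was run. Depth is given here as the 470788 RelB reads in union regions, and the study's own totals of mapped reads per library are not repeated. Regions, gene lists and the pattern searched were chosen with earlier results of these data known. The genes named were, for each list, up to 4 by highest fold enrichment, besides the 10 highest regions, 5 genes with the most regions, 5 highest regions of RelB alone, 5 most discordant regions after subtraction of the median shift, 5 densest uncalled regions and the primer amplicons, and unnamed genes were given by identifier, at most 2 per rule. NFKB1, ICAM1, IRF1, PAX5, BHLHE40, ITPKB and the densest regions, outside this rule, were chosen after their values were seen. The 2062 pairs of identifier and symbol come from the study's supplementary tables, as no identifier matched the RefSeq list. TNIP1 was likewise named after its value was seen. One gene of the lists is counted but not reported here. Alternatives were an IDR under 0.01 or 0.001, an FDR under 1e-05, fold enrichments from 5 upward, removal of high background, wide regions or genes with many regions, other windows, and summits within 250 bp.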

Additional observations from a re-analysis of the deposited data

How the results depend on the processing

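Of 105 recalculated values, 66 stayed within the interval of the value given (for counts, within 1.5 times). The threshold of 0.01 for the IDR and removal of high background changed none of 15 values each, the first since every listed IDR was below it. With an FDR under 1e-05 the median fold enrichment was 9.45, pileup 29, density 45.3 reads per kb, the share with p50 and p52 74.99%, RelB alone 11.8%, rho 0.42 and the log2 signal ratio 0.91. With a fold enrichment of at least 5 they were 9.75, 29, 77.0% and 10.3% for the shares, 0.94 for the signal ratio and 1.41 for the log2 ratio of fold enrichment between all 4 subunits and RelB alone (1.61 before). With an IDR under 0.001, chosen after seeing the data, 2003 regions and 1800 genes were left, with medians of 12.7, 41 and 55.8 reads per kb, shares of 81.5% and 8.69% and a signal ratio of 0.96. Without regions over 1000 bp the density was 46.4 and the log2 ratio of RelB read shares between these groups -0.82 (-1.08 before). A 5 kb window raised the share near a TSS to 28.7%. Summits within 250 bp gave 64.3% with p50 and p52 and 18.8% alone. The log2 ratio between all 4 subunits and RelB alone was 1.92 with the first and 2.49 with the second signal value. The log2 ratio of fold enrichment over a TSS to that over 100 kb away, 0.18, reversed to -0.32 with the first signal value, -0.051 with pileup and -0.12 without the regions at genes with 5 or more RelB regions. Without these regions, a choice also made after seeing the data, the median fold enrichment was 9.41, density 42.5, TSS overlap 17.4%, within 1 kb 21.0%, in a gene 57.7%, with p50 and p52 76.4%, alone 11.1% and the signal ratio 0.92. The cause of these changes was not tested. No paired analysis was possible because the values come from merged replicates and from no test. The lower quartile of RelB reads per region was 33, and the effect of depth on the calls was not tested.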

Other observations

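RelB regions lay close to each other in 954 cases (23.9%), with the next RelB region within 10 kb. These had a median fold enrichment of 8.16 (7.59 to 8.82) and 53.9 reads per kb, and the 3030 isolated regions 9.22 (9.03 to 9.49) and 42.2. RelB alone was called in 20.8% (18.3 to 23.4) of the first and 12.3% (11.2 to 13.5) of the second. Chromosome Y stood apart, with 48 of its 51 union regions called for RelB (94.1%, 84.1 to 98.0), a median fold enrichment of 4.91 and a pileup divided by fold enrichment of 7.11. On the other chromosomes the share called for RelB lay between 22.9% and 32.7% (chromosome 21), and the median fold enrichment between 8.01 and 10.4. On chromosome 19 29.2% of the RelB regions overlapped a TSS, and on chromosome 13, with 54 RelB regions, 7.41%.

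In 4 equal groups by fold enrichment the Spearman rho of the signal values was 0.15, -0.17, -0.40 and 0.16 from the lowest to the highest. The fold enrichment comes from the merged replicates, so grouping by it can itself lower the rho within a group. The values are therefore a description only and do not measure how far the replicates agree. Over all regions the rho was 0.46.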
